A study of Mus musculus with 6 samples.

Results

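Cells burn long-chain fatty acids in mitochondria by a fixed series of steps, and the 36 genes described here encode those steps together with proteins that bring lipid into the cell, store it or export it. The 36 genes were chosen by name, and every array probe for a transcript whose gene name was on that list was used. This list and the comparison lists further on were chosen with earlier results of these data known. Their shares beside those of all genes are therefore a description and not a test. They were 36 of the 37069 gene names on the array and were read by 65 probes, 17 of the genes by 1 probe and 19 by several. RNA came from osteoclasts, the multinucleated cells that resorb bone, and was hybridised to 6 one-colour Agilent mouse arrays. Of these, 3 arrays held osteoclasts from Ano1fl/fl mice, in which the gene of the calcium-activated chloride channel Ano1 is flanked by loxP sites but no Cre is present, and 3 held osteoclasts from Ctsk-Cre;Ano1fl/fl littermates. Both groups carry the floxed Ano1 alleles. Cre under the cathepsin K promoter removes the floxed part in cells that switch on cathepsin K, which macrophages do as they become osteoclasts, so earlier cells of the same culture need not lack the channel. Marrow cells from mice 6 to 8 weeks old were grown with M-CSF, at 10 and then 30 ng/ml, and turned into osteoclasts with RANKL at 50 ng/ml for 5 days. Each array stands for 1 mouse, and the question the comparison addresses is how the osteoclast transcriptome differs between the genotypes.

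A fatty acid is first tied to coenzyme A by an acyl-CoA synthetase, passed through the inner mitochondrial membrane as a carnitine ester and then shortened in cycles of 4 reactions, in each of which an acyl-CoA dehydrogenase works first. The electrons go through the electron transfer flavoprotein to the respiratory chain. Osteoclasts are rich in mitochondria, and the coactivator PGC-1 beta is known for driving mitochondrial gene expression as they form. The sterol exporters and apolipoprotein E are known as products of lipid-loaded macrophages, the lineage from which osteoclasts arise.

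Directions below follow the labels of the arrays, because Ano1 could not check them: its 1 probe was not well above background on any of the 6 arrays. Between 33480 and 34951 of the 59305 transcript spots on an array were well above background, and correlations of log2 signal ran from 0.995 to 0.997 for arrays of the same genotype and from 0.947 to 0.951 for arrays of different genotype. Osteoclast markers were higher on the Ctsk-Cre;Ano1fl/fl arrays for 11 of 12 genes, with a summed normalized signal of 514114 to 579574 against 157493 to 170313 on the Ano1fl/fl arrays. The study describes impaired osteoclast formation from the knockout mice, and the direction of these markers by label is opposite to that description. All 12 stromal and fibroblast markers were higher as well, with sums of 59625 to 100093 against 2122 to 3200. Of 6 B cell markers, 5 were higher and 1 was lower, and of 10 neutrophil markers 1 was higher and 7 were lower. Of 10 macrophage markers 1 was higher and 4 were lower, with overlapping sums of 387076 to 432604 and 381511 to 399858. Of 8 adipocyte markers, 4 were below background on all arrays, Adipoq and Plin1 among them, and the sums were 230 to 259 against 409 to 423. The part of these cell types in the results on lipid genes was not tested. In bulk RNA of this kind, fewer cells of a type and less RNA per cell cannot be told apart.

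In the account that follows, each gene is given as a normalized log2 signal, in which a step of 1 is a doubling, and each difference is the Ctsk-Cre;Ano1fl/fl mean minus the Ano1fl/fl mean on that scale. Of the 36 genes, 35 were tested. Ppargc1a, which encodes the coactivator PGC-1 alpha, was the exception, since both of its probes were below background on all 6 arrays. At a limma adjusted p under 0.05 over all 20645 genes tested, 19 of the 35 genes (54.3%) were higher and 4 (11.4%) were lower on the Ctsk-Cre;Ano1fl/fl arrays, and 12 did not pass. Over all genes tested, 23.4% were higher and 29% were lower. The higher genes were 3 of 4 acyl-CoA synthetases, 3 of 5 acyl-CoA dehydrogenases, 3 of 5 enzymes of the later steps of the cycle, 3 of 4 enzymes for unsaturated fatty acids, 2 of 3 electron transfer genes, Ppargc1b, Pdk4 and Acot2, and 2 fatty acid binding proteins. The lower genes were Cpt1a, Hadh, Plin2 and Apoe. By its brightest probe, no gene of the carnitine shuttle and none of the 3 sterol genes was called higher.

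Most of the differences were small. Only Pdk4, Ehhadh, Ppargc1b and Fabp4 were higher by more than 2-fold, 4 of 35 or 11.4% against 9.88% of all genes tested, which is a share near the background. The count was 2 with normexp background correction, where Pdk4 (0.79) and Ehhadh (0.94) fell short, and 3 without Ano1fl/fl replicate 2 or Ctsk-Cre;Ano1fl/fl replicate 1, where Fabp4 did (0.94 and 0.98). It was also 3 where all 6 arrays had to be above background, since Pdk4 was then not tested. Apoe alone was lower by more than 2-fold, 2.86% against 7.19% of all genes tested. The median difference of the 35 genes was 0.28 against -0.06 over all genes, and 25 of them had a positive and 10 a negative difference. The 2 groups of arrays did not overlap for 26 of the 35 genes (74.3%), against 64% of all genes tested.

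**Figure D1:**
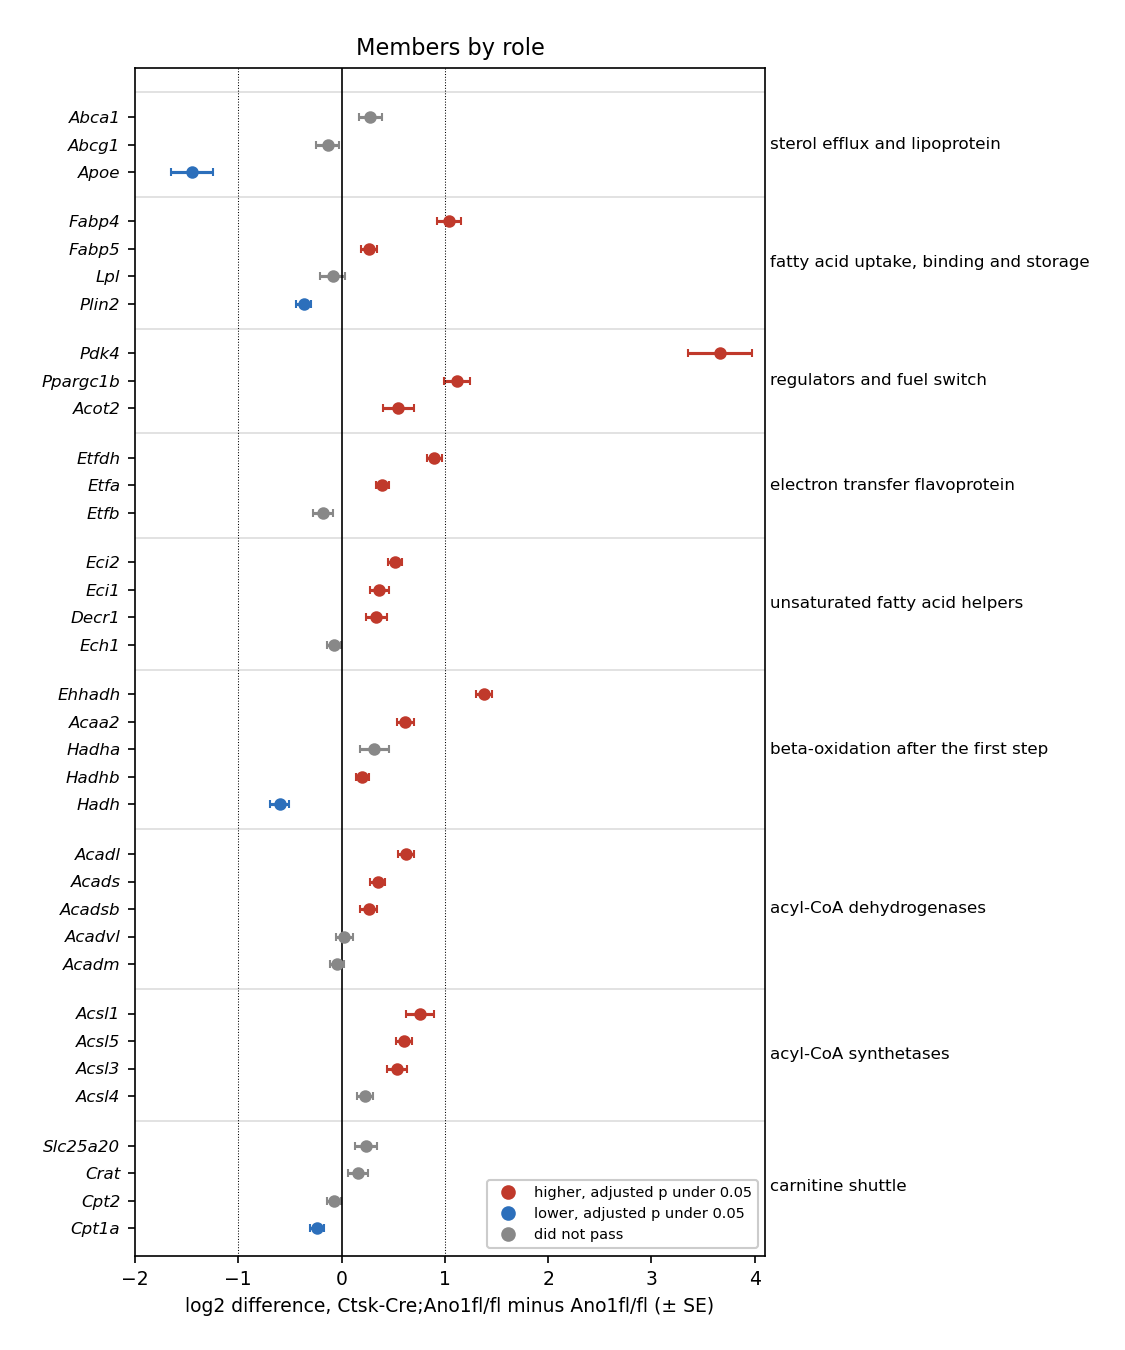
Log2 difference of signal, Ctsk-Cre;Ano1fl/fl minus Ano1fl/fl, for each of the 35 genes tested, grouped by role. Points are differences, bars are standard errors from limma (3 arrays a group), colours give the call, and dotted lines mark 2-fold. The difference of Pdk4, whose control arrays were below background, has no measured upper end. Apoe lies farthest to the left at -1.45, and 19 points are coloured as higher against 4 as lower.

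Acyl-CoA synthetases activate long-chain fatty acids, and all 4 had a positive difference on their brightest probe. Acsl1 had signals of 13.67, 13.78 and 13.79 on the Ano1fl/fl arrays, against 14.77, 14.49 and 14.27 on the Ctsk-Cre;Ano1fl/fl arrays. Every Ctsk-Cre;Ano1fl/fl array lay above every control array, and the difference was 0.76 (SE 0.13, limma adjusted p = 0.00433), or 1.69-fold. A second RefSeq probe of Acsl1 differed by 0.56 (SE 0.15, adjusted p = 0.0194 among 31848 probes). The third Acsl1 probe had a difference of -0.09 and did not pass, and nor did the average of the Acsl1 probes (0.41, adjusted p = 0.0938). Acsl3 was 1.45-fold higher, with a log2 difference of 0.54 (SE 0.10, limma adjusted p = 0.0046), and its second probe gave 0.50. Acsl5 was 1.52-fold higher by its RefSeq probe, which read 12.05, 11.94 and 12.03 on the control arrays and 12.71, 12.60 and 12.53 on the others. Another Acsl5 probe had a difference of -1.15, and the average of the Acsl5 probes gave -0.27 (adjusted p = 0.0374). Acsl4, which prefers arachidonic acid, had a difference of 0.22 with a 95% interval of 0.03 to 0.41 and an adjusted p of 0.0516, and its other probes gave 0.02 and -0.04.

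The carnitine shuttle carries the activated fatty acid into the matrix. Its gatekeeper is Cpt1a, the outer membrane transferase, and Cpt1a fell. The 3 control arrays read 12.59, 12.50 and 12.51 and the Ctsk-Cre;Ano1fl/fl arrays 12.29, 12.32 and 12.27. The spread within each group was small, 0.05 and 0.03 (SD, n = 3), and the difference of -0.24 (SE 0.06, limma adjusted p = 0.0215) amounted to a 1.18-fold fall. It rests on 1 probe, and it passed again without Ctsk-Cre;Ano1fl/fl replicate 2 but did not when any of the other 5 arrays was removed (adjusted p = 0.0503 to 0.0627). The carrier Slc25a20 had a difference of 0.24 (95% interval -0.02 to 0.50), and the groups overlapped. Crat, the carnitine acetyltransferase, had a difference of 0.16 (95% interval -0.08 to 0.39) by its brighter probe and 0.41 by its other probe, which passed (adjusted p = 0.0273 among probes). Cpt2, the inner membrane transferase, was split in the same way, with -0.07 (95% interval -0.24 to 0.09) by the brighter probe and 0.45 (SE 0.09, adjusted p = 0.00648 among probes) by the dimmer one.

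Each acyl-CoA dehydrogenase takes fatty acids of a certain length. The long-chain enzyme gene Acadl rose from signals of 12.60, 12.69 and 12.81 to 13.31, 13.33 and 13.33. That is a difference of 0.62 (SE 0.08, limma adjusted p = 0.0011), or 1.54-fold, and the groups were far apart. The short-chain enzyme gene Acads rose by 0.35 (SE 0.07, limma adjusted p = 0.00921). Acadsb, which acts on short branched acyl-CoA, passed at a difference of 0.26 (limma adjusted p = 0.0389), but its other RefSeq probe gave -0.31 (SE 0.16) and did not pass, and Acadsb passed again without Ctsk-Cre;Ano1fl/fl replicate 3 but not when any of the other 5 arrays was removed (adjusted p = 0.0634 to 0.109). The medium-chain and very-long-chain enzyme genes did not pass: Acadm had a difference of -0.04 (95% interval -0.20 to 0.12) and Acadvl 0.02 (95% interval -0.18 to 0.23), both with overlapping groups.

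The later steps of the cycle gave the widest range of the enzyme groups. Ehhadh, the peroxisomal bifunctional enzyme, was higher on every Ctsk-Cre;Ano1fl/fl array. Its signals were 6.57, 6.39 and 6.48 on the Ano1fl/fl arrays, against 7.89, 7.77 and 7.93 on the Ctsk-Cre;Ano1fl/fl arrays. The groups were far apart beside their SDs of 0.09 and 0.08, with a difference of 1.38 (SE 0.08, limma adjusted p = 7.23e-05), or 2.6-fold. Acaa2, the mitochondrial thiolase, went from 13.90, 13.84 and 14.04 to 14.59, 14.55 and 14.50, a difference of 0.62 (SE 0.08, limma adjusted p = 0.00126). Hadh, the dehydrogenase for medium and short hydroxyacyl-CoA, went the other way. It read 11.37, 11.16 and 11.29 on the control arrays and 10.62, 10.81 and 10.59 on the others, with no overlap, and the difference was -0.60 (SE 0.09, limma adjusted p = 0.00284), a 1.52-fold fall. Hadha and Hadhb encode the subunits of the trifunctional protein. Hadha had a difference of 0.32 (95% interval -0.03 to 0.67, limma adjusted p = 0.108) with groups that did not overlap. Hadhb passed at 0.20 (SE 0.06, limma adjusted p = 0.0404), a call lost whichever of the 6 arrays was left out, at adjusted p-values of 0.0633 to 0.11.

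Unsaturated fatty acids need extra enzymes to move or reduce a double bond. Of these, Eci2 was 1.43-fold higher, with signals of 13.01, 13.11 and 13.09 against 13.56, 13.64 and 13.56 (difference 0.52, SE 0.07, limma adjusted p = 0.00135). Both of its probes passed. Eci1 differed by 0.37 (SE 0.09, limma adjusted p = 0.0165) and the dienoyl-CoA reductase Decr1 by 0.34 (SE 0.10, limma adjusted p = 0.0337). Without Ano1fl/fl replicate 1 the adjusted p of Decr1 was 0.0831, and 3 other arrays also decided its call, namely Ano1fl/fl replicate 2 (0.0672) and Ctsk-Cre;Ano1fl/fl replicates 2 (0.0954) and 3 (0.084). For Eci1 only the removal of Ano1fl/fl replicate 3 did so (0.054). Ech1 had a difference of -0.07 (95% interval -0.24 to 0.10).

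The electron transfer flavoprotein takes electrons from the acyl-CoA dehydrogenases, and Etfdh passes them to ubiquinone. Etfdh rose from 12.12, 12.05 and 12.08 to 12.91, 13.07 and 12.96. This was 1.87-fold (difference 0.90, SE 0.07, limma adjusted p = 0.000207), with a wide gap between the groups. Etfa, the alpha subunit, rose by 0.39 (SE 0.06, limma adjusted p = 0.00298) on its brightest probe and by 0.52 and 0.78 on its other probes. Etfb, the beta subunit with which it pairs, had a difference of -0.18 (95% interval -0.41 to 0.06), and its second probe gave -0.04. The subunits of this heterodimer were thus called differently, and the difference between their changes was not tested.

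Among the regulators, Pdk4 encodes a kinase that shuts pyruvate dehydrogenase and so favours fat over glucose as fuel. Its signals were 2.05, 2.40 and 1.72 on the Ano1fl/fl arrays, none of which was well above background, and 6.31, 5.66 and 5.20 on the Ctsk-Cre;Ano1fl/fl arrays, all of which were. With the processed signal, Pdk4 was at least 3.38-fold higher, measured against the lowest signal that counted as above background on each control array. This bound does not hold for the other background treatments given next. Pdk4 entered the test only through the Ctsk-Cre;Ano1fl/fl arrays, and the limma adjusted p of 0.000254 belongs to the fitted difference, not to the bound. The fitted difference depended on how background was treated, at 3.67 with the processed signal, 0.79 with normexp and 1.25 with the median spot signal, and with normexp it was below those of Ppargc1b, Fabp4 and Ehhadh. Ppargc1b, the gene of PGC-1 beta, read 10.49, 10.23 and 10.41 against 11.46, 11.70 and 11.32. It was 2.17-fold higher (difference 1.12, SE 0.12, limma adjusted p = 0.000723), and its other probe gave 1.24. Acot2, a mitochondrial thioesterase that frees the fatty acid again, differed by 0.55 (SE 0.15, limma adjusted p = 0.0237). Its control signals lay within 8.80 to 8.83, whereas the Ctsk-Cre;Ano1fl/fl arrays ranged from 9.07 to 9.67, and the adjusted p was 0.0597 to 0.0651 without any 1 of the Ano1fl/fl arrays and 0.0624 without Ctsk-Cre;Ano1fl/fl replicate 1.

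Proteins of uptake and storage did not move together. Fabp4, a fatty acid binding protein of macrophages and adipocytes, was 2.05-fold higher, with signals of 12.93, 12.55 and 12.71 against 13.88, 13.75 and 13.68 (difference 1.04, SE 0.12, limma adjusted p = 0.000783). Its second probe gave 1.24. Of the 8 adipocyte markers, 4 were below background on every array and 3 were tested, of which 2 were lower and 1 did not pass. Lipe, among the lower ones, was read by a probe without a RefSeq accession. The part of adipocytes in the Fabp4 signal was not tested. Fabp5 was 1.2-fold higher (difference 0.27, SE 0.07, limma adjusted p = 0.0253). It did not pass when Ano1fl/fl replicate 2 or 3 or Ctsk-Cre;Ano1fl/fl replicate 1 or 2 was removed (adjusted p = 0.0621 to 0.0822). Plin2, which coats lipid droplets, was lower. It read 15.43, 15.54 and 15.58 on the control arrays and 15.12, 15.16 and 15.17 on the others, a 1.29-fold fall (difference -0.37, SE 0.07, limma adjusted p = 0.00599), and both probes passed. Lpl, the lipase that releases fatty acids from lipoproteins, had a difference of -0.09 (95% interval -0.38 to 0.21) by its brightest probe, and the groups overlapped.

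The sterol genes included the largest fall. Apoe, which encodes the apolipoprotein E that macrophages secrete, read 17.50, 17.31 and 17.30 on the Ano1fl/fl arrays, against 16.38, 15.75 and 15.63 on the Ctsk-Cre;Ano1fl/fl arrays. All 3 Ctsk-Cre;Ano1fl/fl arrays were below every control array but differed among themselves (SD 0.40 against 0.11), and the 2.73-fold fall (difference -1.45, SE 0.20, limma adjusted p = 0.00175) was matched by a second probe at -1.60. Of the 10 macrophage markers, 4 were lower, Mrc1 (-1.36) and Cx3cr1 (-4.62) among them, 1 was higher (Adgre1, 0.80) and 5 did not pass, with a median difference of -0.08. The cholesterol exporters Abca1 and Abcg1 had differences of 0.28 (95% interval 0.00 to 0.56, limma adjusted p = 0.0835) and -0.13 (95% interval -0.40 to 0.13). Abca1 passed only when Ano1fl/fl replicate 3 was left out or limma was run with trend and robust settings (adjusted p = 0.0289 and 0.0407), and its other probe gave -0.36.

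**Figure D2:**
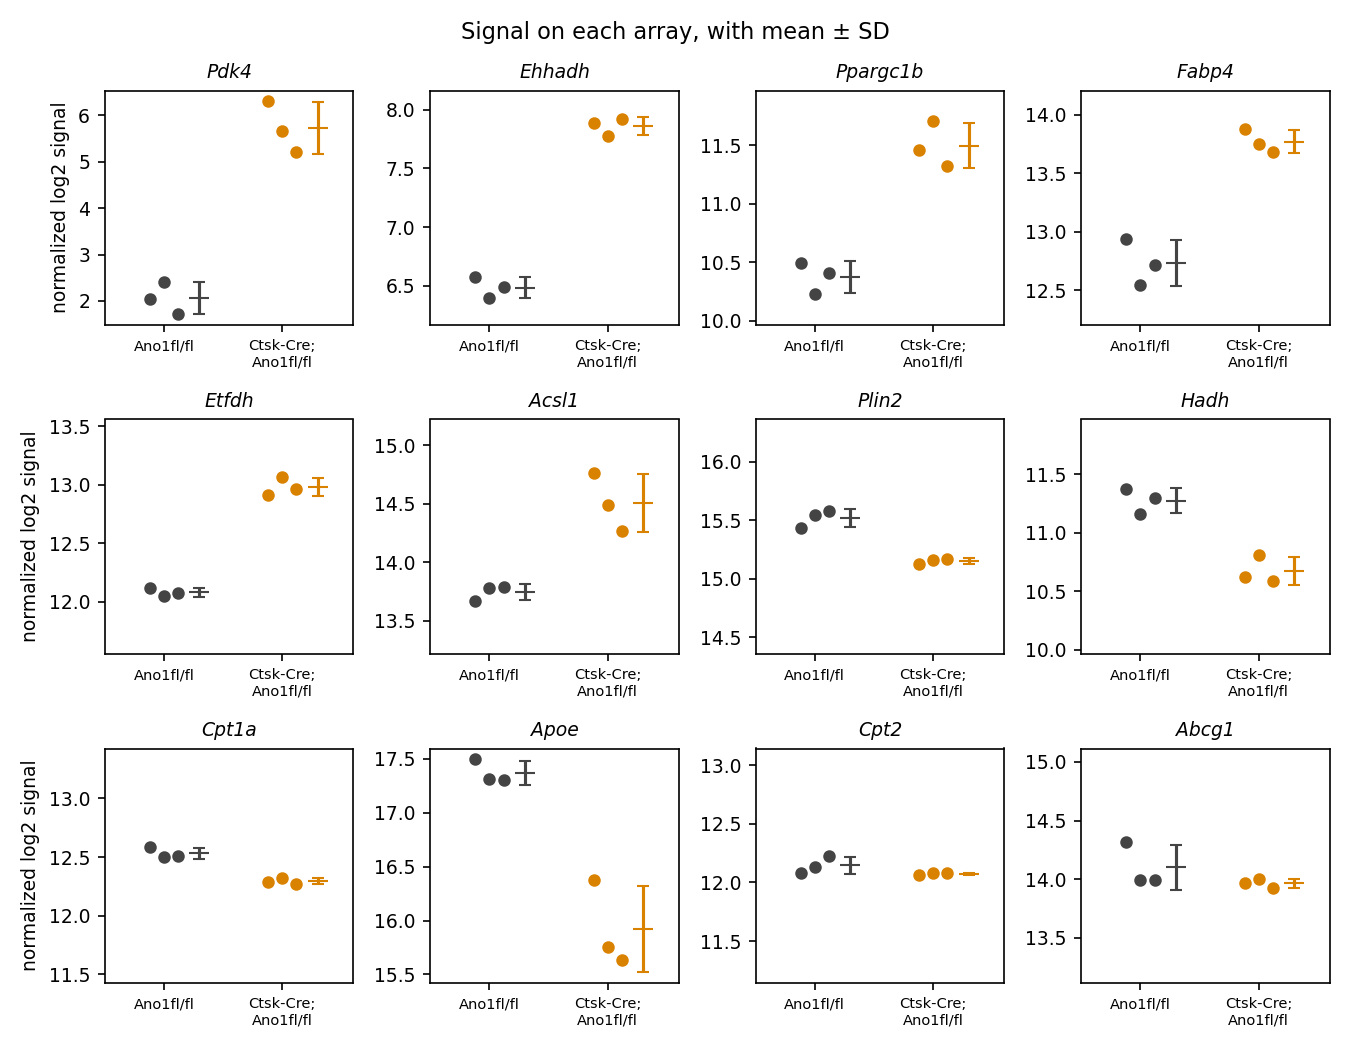
Normalized log2 signal on each array for 12 of the genes, with the mean and SD of 3 arrays beside the points of each group. Each panel has its own vertical axis, so heights cannot be compared between panels; Fabp4 runs from 12.55 to 13.88 and Apoe from 15.63 to 17.50, and the Abcg1 panel shows groups that overlap.

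The probes of a gene were then compared, because 1 name can stand for several transcripts. Of the 65 probes, 61 were tested over 31848 probes in all: 29 were higher, 11 were lower and 21 did not pass. The background was 21.8% higher and 30.6% lower. The array files give a RefSeq accession for 56 of the 65 probes, and the other 9 carry only a cDNA clone or an Ensembl transcript. Of the 54 RefSeq probes tested, 28 were higher and 6 were lower. Of the 7 others tested, 1 was higher and 5 were lower, from 3 genes. Over the whole array, 25.2% of tested RefSeq probes were higher and 27.5% lower, and of the probes without RefSeq accession 13.1% were higher and 38.6% lower. The imbalance among the 7 thus runs the same way as that on the whole array, and it was not tested.

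Lpl, Hadhb and Acsl5 were the genes with such lower probes. The first pair of sequences below are 2 of the 3 RefSeq probes of Lpl, and the next 3 are the Lpl probes without a RefSeq accession, all given as deposited, 5′ to 3′, with mm9 positions from the array files and no part in capitals; they are shown because they lie in 1 gene, Lpl, but only those without a RefSeq accession passed the test. The last pair are a RefSeq probe and the Ensembl-only probe of Hadhb.
Lpl A_66_P123790, chr8:71419652-71419711, plus strand: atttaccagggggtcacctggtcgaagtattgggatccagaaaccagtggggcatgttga
Lpl A_52_P257812, chr8:71425050-71425109, plus strand: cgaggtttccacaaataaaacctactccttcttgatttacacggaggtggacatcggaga
Lpl A_55_P2900592, chr8:71405538-71405597, plus strand: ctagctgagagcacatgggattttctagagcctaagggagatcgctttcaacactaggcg
Lpl A_55_P2738847, chr8:71408343-71408402, plus strand: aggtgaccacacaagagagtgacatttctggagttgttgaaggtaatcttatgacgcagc
Lpl A_55_P2715720, chr8:71413311-71413370, plus strand: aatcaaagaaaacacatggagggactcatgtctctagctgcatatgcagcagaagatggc
Hadhb A_66_P130187, chr5:30503442-30503500, plus strand: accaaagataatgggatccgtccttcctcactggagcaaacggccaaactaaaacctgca
Hadhb A_55_P2720625, chr5:30494754-30494813, plus strand: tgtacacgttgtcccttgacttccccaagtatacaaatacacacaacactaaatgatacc

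The 3 RefSeq probes of Lpl had differences of -0.04 (SE 0.16), -0.21 (SE 0.12) and -0.09 (SE 0.12), and none passed. The 3 other probes all lie upstream of the first of these on the plus strand of chromosome 8, and all fell. The probe starting at 71405538 read 11.04, 11.55 and 11.61 on the control arrays and 10.26, 10.75 and 10.19 on the Ctsk-Cre;Ano1fl/fl arrays, a difference of -0.998 (SE 0.21, adjusted p = 0.00834 among probes). Those starting at 71408343 and 71413311 gave -0.88 (SE 0.21) and -0.87 (SE 0.19), with adjusted p-values of 0.0129 and 0.0104. In all 3 the groups did not overlap, while in all 3 RefSeq probes they did. Whether these 3 positions are exonic or intronic in Lpl was not determined here, as no mm9 annotation was used. With the mean of all 6 probes in place of the brightest, Lpl had a difference of -0.51 (adjusted p = 0.0346).

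Hadhb and Acsl5 each had probes called in both directions. Hadhb rose by 0.46 (SE 0.11, adjusted p = 0.0129 among probes) on the RefSeq probe printed above and fell by 0.40 (SE 0.08, adjusted p = 0.00512) on the Ensembl-only probe, which read 7.48, 7.42 and 7.57 against 7.06, 7.09 and 7.10. Acsl5 rose by 0.61 on its RefSeq probe, while the probe of a cDNA clone fell, from 7.18, 7.26 and 7.56 to 6.12, 6.04 and 6.38 (difference -1.15, SE 0.14, adjusted p = 0.000958 among probes). That second probe lies at chr19:55372112-55372171 (mm9), past the RefSeq probe in the direction of transcription. Etfdh was the exception among the probes without RefSeq accession, with a rise of 0.34 (SE 0.10, adjusted p = 0.0301) beside the 0.90 of its RefSeq probe.

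**Figure D3:**
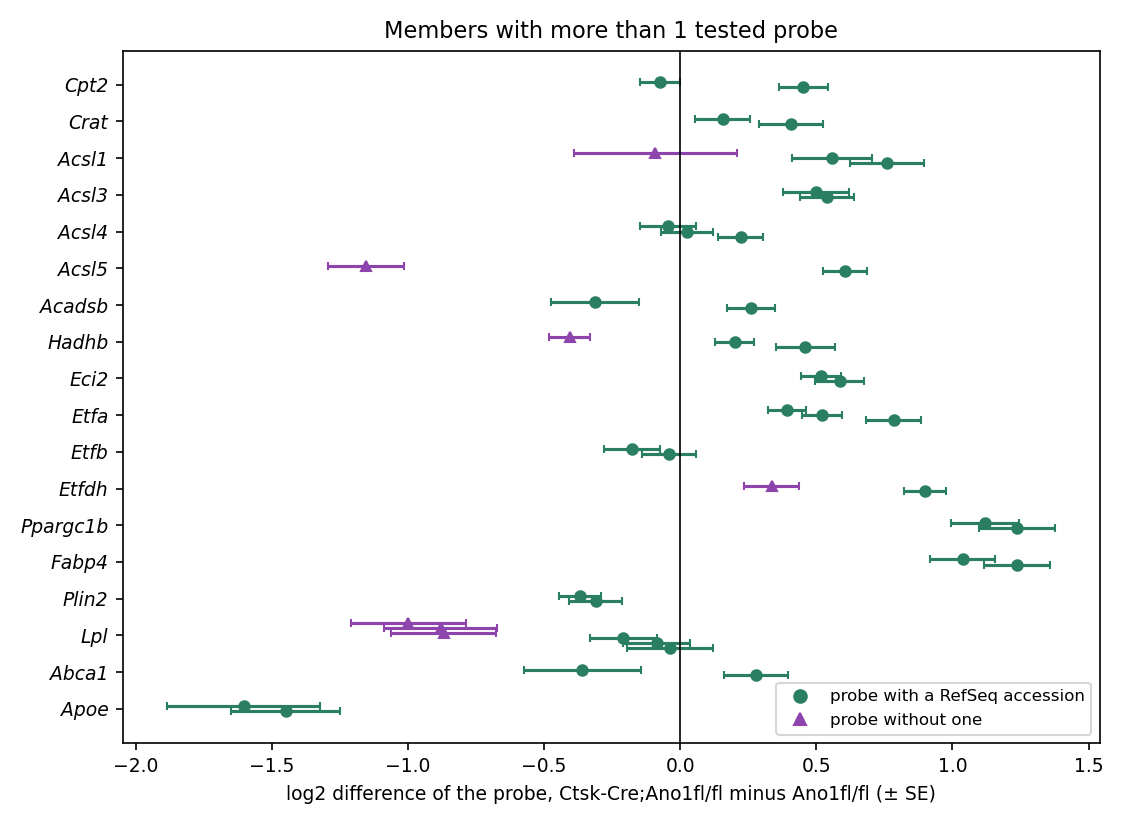
Log2 difference of each tested probe, Ctsk-Cre;Ano1fl/fl minus Ano1fl/fl, for the 18 genes with more than 1 tested probe; bars are standard errors (3 arrays a group). Circles are probes with a RefSeq accession and triangles those without; the 3 triangles of Lpl lie between -0.998 and -0.87 and its 3 circles between -0.21 and -0.04.

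The promoters of the genes were read for the elements that nuclear receptors of lipid metabolism bind. PPARs act on 2 half-sites of the letters AGGTCA spaced by 1 base (DR1), LXRs on the same with 4 bases between them (DR4), and estrogen-related receptors on TCAAGGTCA. RefSeq promoter windows, which run from 250 bases before the start of transcription to 50 after it in GRCm38.p6, were matched for 28 of the 36 genes, in 31 windows. The half-site AGGTCA, on either strand, was in the windows of 4 genes, Acadm, Acadvl, Cpt1a and Plin2. That is 12.9% of the 31 windows against 16.3% of the 32851 windows of that length in all. No window of the 28 genes held a DR1, a DR4 or the TCAAGGTCA element. These were in 0.0396%, 0.0152% and 0.423% of all windows, so their absence from 31 windows carries no information on these genes. Only exact matches were counted, and imperfect elements and sites outside the windows were not searched. The half-site search also counts those inside the longer elements. Of the 4 genes with a half-site, Acadm and Acadvl did not pass the test and Cpt1a and Plin2 fell. The 250 bases before the start are given for Pdk4 and Ehhadh, both higher by more than 2-fold, and for Cpt1a and Plin2, the falls with a half-site; capitals mark the half-site, which lies on the opposite strand and starts 94 bases before the start of Cpt1a and 218 before that of Plin2.
Pdk4 promoter, chr6:5496279-5496528, minus strand: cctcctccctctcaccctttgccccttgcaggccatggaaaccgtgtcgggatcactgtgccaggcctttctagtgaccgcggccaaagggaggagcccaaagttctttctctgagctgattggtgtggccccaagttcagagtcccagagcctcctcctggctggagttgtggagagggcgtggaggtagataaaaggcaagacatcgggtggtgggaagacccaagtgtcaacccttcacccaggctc
Ehhadh promoter, chr16:21787835-21788084, minus strand: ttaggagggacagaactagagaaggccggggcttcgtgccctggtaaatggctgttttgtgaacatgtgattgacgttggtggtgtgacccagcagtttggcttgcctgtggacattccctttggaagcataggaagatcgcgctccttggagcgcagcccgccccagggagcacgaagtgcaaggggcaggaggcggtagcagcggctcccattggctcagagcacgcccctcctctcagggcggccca
Cpt1a promoter, chr19:3323051-3323300, plus strand: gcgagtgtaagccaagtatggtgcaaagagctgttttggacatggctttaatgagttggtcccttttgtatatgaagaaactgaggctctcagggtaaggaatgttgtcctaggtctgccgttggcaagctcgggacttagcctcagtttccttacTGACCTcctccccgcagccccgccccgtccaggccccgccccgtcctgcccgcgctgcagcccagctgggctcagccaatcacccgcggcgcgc
Plin2 promoter, chr4:86670060-86670309, minus strand: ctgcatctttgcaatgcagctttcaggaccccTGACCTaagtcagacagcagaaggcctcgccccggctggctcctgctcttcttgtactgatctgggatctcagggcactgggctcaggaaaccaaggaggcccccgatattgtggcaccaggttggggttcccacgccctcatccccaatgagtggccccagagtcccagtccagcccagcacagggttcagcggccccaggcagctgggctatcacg

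A list of 144 other genes of the same pathways served for comparison. Of these, 126 were tested: 34 (27.0%) were higher and 35 (27.8%) were lower, against 23.4% and 29% of all genes tested. The count of lower genes was 22 without Ano1fl/fl replicate 2 or Ctsk-Cre;Ano1fl/fl replicate 3, 23 without Ano1fl/fl replicate 1 and 18 at an adjusted p under 0.01. Over 2-fold, 15 (11.9%) were higher and 5 (3.97%) were lower, against 9.88% and 7.19% of all genes tested. Where all 6 arrays had to be above background, 13 were higher and 4 lower. Genes of lipolysis, lipid droplets and triglyceride synthesis were higher for 10 of 20 and lower for 2, and 8 did not pass; 7 of the 20 (35.0%) rose by more than 2-fold. In this list G0s2, an inhibitor of the main triglyceride lipase, differed by 2.13 (SE 0.17), and Mgll, the monoacylglycerol lipase, by 1.96 (SE 0.15). Lipe, the hormone-sensitive lipase, fell by 1.68 (SE 0.09) on a probe without a RefSeq accession. Of the other sterol and lipoprotein genes 10 of 18 were lower and 2 higher, with Apoc1 at -1.20 (SE 0.11) and Apod at -1.12 (SE 0.11), in the same direction as Apoe.

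Other oxidation enzymes went both ways. Of 21 other mitochondrial genes 6 (28.6%) were higher and 8 (38.1%) lower, and of 20 peroxisomal genes 2 (10%) were higher and 5 (25%) lower. Over all genes tested, 23.4% were higher and 29% lower. Acad10 and Acad11, relatives of the dehydrogenases, rose by 1.46 (SE 0.08) and 1.04 (SE 0.06). Acot1, a thioesterase closely related in sequence to Acot2, fell by 1.57 (SE 0.19) while Acot2 rose, each by 1 probe, and whether either probe also binds the other transcript was not tested. Amacr, the racemase of branched fatty acids, rose by 1.79 (SE 0.08), and the peroxisomal transporter Abcd2 was lower, with 7.35, 6.29 and 6.87 against 4.097, 3.131 and 3.986. Only 1 of the 3 Ctsk-Cre;Ano1fl/fl arrays was above background for Abcd2, so the size of that fall is not given. Among 12 genes of activation and the carnitine shuttle, 3 (25%) were higher and 4 (33.3%) lower. Cpt1c, the form of the transferase known from neurons, rose by 2.73 (SE 0.13), whereas Cpt1b, the muscle form, was lower with a difference of -0.38 (SE 0.07), as was Cpt1a. Slc27a6, a fatty acid transport protein, was below background on its control arrays and entered the test only through the Ctsk-Cre;Ano1fl/fl arrays. With the processed signal it was at least 1.73-fold higher, measured against the lowest signal above background on each control array. It was counted as over 2-fold by its fitted difference of 1.55.

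Receptors and carriers completed the list. Of 11 uptake and binding genes 3 (27.3%) were higher and 2 (18.2%) lower, against 23.4% and 29% of all genes tested. Among the higher ones were Vldlr, the very-low-density lipoprotein receptor, at 3.42 (SE 0.15) and Fabp3 at 2.52 (SE 0.18). Vldlr read 7.07, 7.04 and 7.30 against 10.59, 10.81 and 10.27, the largest rise of any gene in the 7 lists. Of 24 regulators 8 (33.3%) were higher and 4 (16.7%) lower. Nr1h3, the gene of LXR alpha, read 12.74, 13.03 and 13.01 against 14.28, 14.38 and 14.15, a difference of 1.34 (SE 0.11, limma adjusted p = 0.000212).

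**Figure D4:**
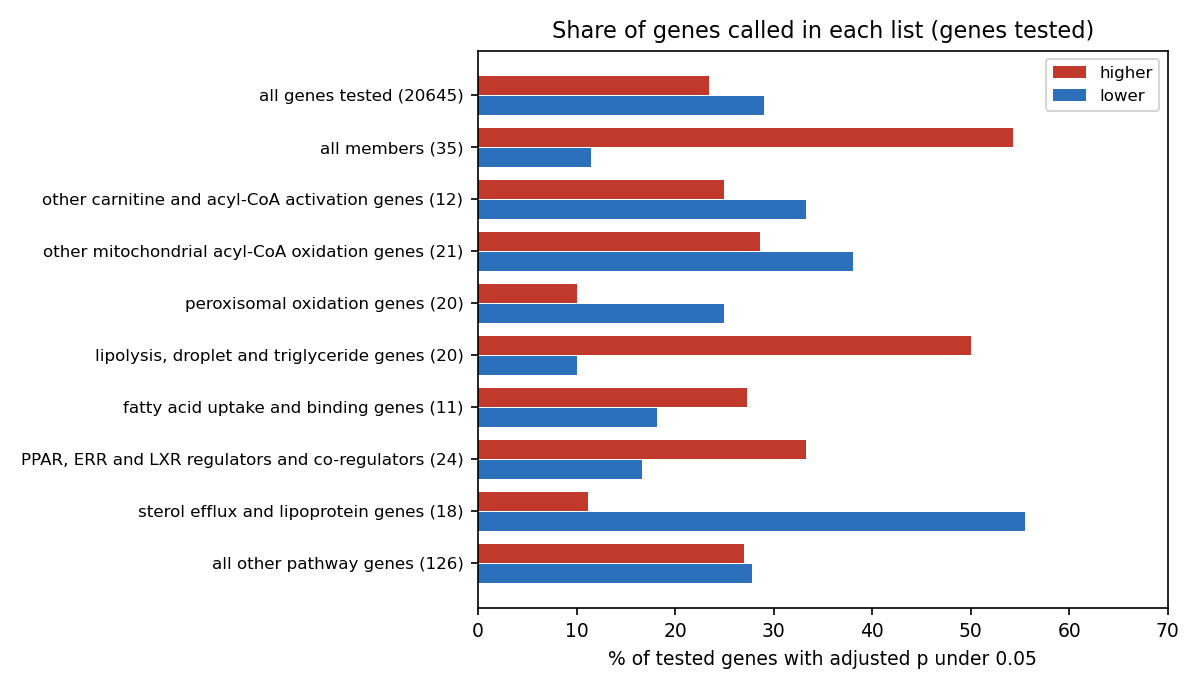
Percent of tested genes that were higher or lower at a limma adjusted p under 0.05, for all genes, for the 36 genes described here (35 tested) and for the 7 lists of other pathway genes together and apart; the number tested is in parentheses. The 35 genes stand at 54.3% higher and 11.4% lower against 23.4% and 29% of all genes, and the sterol and lipoprotein list has the highest share of lower genes.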

How the data were processed

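RNA from osteoclasts of 3 Ano1fl/fl and 3 Ctsk-Cre;Ano1fl/fl mice was read on 1-colour Agilent arrays, all on 1 slide and in 1 scan, with Agilent Feature Extraction 10.7.1.1. The values the authors deposited are linear intensities: a processed signal per spot, corrected for background but not normalized between arrays, and a table equal to the median spot brightness. Control and outlier spots (143 to 252 an array) were left out. After log2 transformation, arrays were quantile normalized in R 4.3.3 with limma 3.58.1, the algorithm the methods name, and spots of a probe were averaged. The brightest probe stood for a gene, which was tested where all 3 arrays of a group were well above background. limma's moderated linear model was adjusted by Benjamini-Hochberg over 20645 genes, or 31848 probes, and calls were made at 0.05. With 3 arrays against 3, an exact permutation test cannot go below 0.1 and was not used. The number of arrays limits precision. All 36 genes are named, and of each other list the 2 largest rises and falls over 2-fold without overlap; Cpt1b and the macrophage markers were named after their values were seen. Etfbkmt was under no probe name. Genes and lists were chosen with earlier results of these data known. The array files supplied gene names and positions. The fit was tested on simulated data. Alternatives covered scaling, background correction, filters, probe choice, tests and thresholds.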

Additional observations from a re-analysis of the deposited data

How the results depend on the processing

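Of the 23 genes called, 14 kept their direction and call under all the alternatives in which they were tested, and 16 with any array left out; the other 7 are named with their values in the report or here. The count of higher genes was 13 (at an adjusted p under 0.01) to 21 and that of lower genes 3 to 6. Over 2-fold, 2 genes were higher with normexp, where Ehhadh (0.94) and Pdk4 (0.79) fell short, and 3 under 75th percentile scaling or without Ano1fl/fl replicate 2 or Ctsk-Cre;Ano1fl/fl replicate 1, where Fabp4 fell short (0.94, 0.94 and 0.98); with the fold set at 1.5 the counts were 9 higher and 2 lower, and at 3 they were 1 and 0. When a gene was the average of its probes, Acsl5 reversed to -0.27 (adjusted p = 0.0374) and Acadsb to -0.026, since probes of opposite sign were averaged, and Acsl1 and Hadhb did not pass. Decr1 and Acot2 did not pass without the filter on dim probes or by the methods' t-test, and Pdk4 was not tested where all 6 arrays had to be above background. Acsl4 passed in 5 settings, normexp among them. Under 75th percentile scaling, which moved the median of all genes from -0.06 to -0.12, Acadsb, Hadhb, Eci1, Decr1 and Fabp5 did not pass, and 38.4% instead of 44.7% of called genes were higher. Of the 144 other pathway genes, 18 were lower at an adjusted p under 0.01 and 22 to 31 with an array left out (22 without Ano1fl/fl replicate 2 or Ctsk-Cre;Ano1fl/fl replicate 3, and 23 without Ano1fl/fl replicate 1); 3 were lower over 2-fold with normexp. The cause was not tested. Samples of the same number did not deviate together (correlations 0.00, -0.06 and -0.08), so the numbers do not pair the samples; with a replicate block 16 genes were higher and 3 lower, and Cpt1a (adjusted p = 0.0695), Acadsb (0.0984), Hadhb (0.0956) and Fabp5 (0.0663) did not pass. Genes near background, such as Pdk4, have only a bound on 1 side.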
